A study of Mus musculus with 27 samples.

Results

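The miRNAs described here are miR-144, miR-451a and miR-486, which are best known from red blood cells, followed over 27 small-RNA libraries of mouse brain. They were found by name, as every mature miRNA listed whose name begins with miR-144-, miR-451a, miR-486- or miR-3107-. That rule found 7 of the 844 miRNAs listed in the series: miR-144-3p, miR-144-5p, miR-451a, miR-486-5p, miR-486-3p, miR-3107-5p and miR-3107-3p. The levels of miR-486-5p and miR-3107-5p differed by at most 1.10% in any of the 27 libraries and were identical in 4, so reads of one cannot be told from reads of the other. They are treated as an uncertain pair and described through miR-486-5p.

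All mice were of the C57BL/6 strain. The suprachiasmatic nucleus (SCN, the central circadian clock of the brain), hypothalamus and cortex gave 2 tissue libraries each. A time course of SCN tissue held 1 library every 4 h from ZT2 to ZT42, where ZT is zeitgeber time, 11 libraries in all. SCN neurons labelled AVP, VIP and CCK, after their neuropeptides, gave 2 libraries each, and how these neurons were collected is not stated in the labels. SCN tissue at CT18, circadian time, gave 2 libraries named CTRL and 2 named LP, which the labels do not spell out, while the series design speaks of light-response miRNAs. The labels name no sex, age or animal for any library, so p-values measure only the spread between libraries, which may be technical.

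Mature red cells carry no nucleus but keep a store of miRNAs from their precursors. The miR-144 and miR-451a hairpins are cut from a single primary transcript that the factor GATA1 switches on in red-cell precursors. miR-451a is unusual because its short hairpin is cut by Argonaute 2 rather than by Dicer. miR-486-5p is abundant in red cells and also in muscle. In brain tissue that is not perfused, miR-144 and miR-451a are commonly read as signs of blood. Each hairpin has a 5′ and a 3′ arm, named 5p and 3p, of which one is usually kept in Argonaute as the guide.

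Mature sequences of 3 of the 7 members, miR-144-3p, miR-144-5p and miR-451a, were found in RefSeq on the GRCm38.p6 assembly. They are shown with their seeds, bases 2 to 8 counted from the 5′ end, in capitals, because the seed sets which messenger RNAs a miRNA pairs with and because their low GC content bears on the results. miR-101a-3p and miR-101b-3p are shown for letters they share with the start of miR-144-3p.
miR-144-3p: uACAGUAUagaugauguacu
miR-144-5p: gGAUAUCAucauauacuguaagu
miR-451a: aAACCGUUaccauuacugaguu
miR-101a-3p: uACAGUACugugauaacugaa
miR-101b-3p: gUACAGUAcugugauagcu

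No other miRNA listed with a sequence shared bases 2 to 8 with miR-144-3p, and 1, miR-101a-3p, shared its bases 2 to 7. None shared bases 2 to 7 with miR-451a. The GC content was 30% in miR-144-3p, 30.4% in miR-144-5p and 36.4% in miR-451a. The median of the 690 listed miRNAs with a sequence was 50%. Of these 690, 9 were at or below the GC content of miR-144-3p and 91 at or below that of miR-451a.

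The 2 hairpins lie on the plus strand of chromosome 11 (GRCm38.p6), Mir144 at chr11:78073005-78073070 and Mir451a at chr11:78073170-78073241. They are shown whole because both arms of Mir144 are measured here while a single product of Mir451a is. Capitals mark the mature miRNAs.
Mir144: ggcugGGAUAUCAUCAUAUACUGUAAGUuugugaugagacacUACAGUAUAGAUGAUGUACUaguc
Mir451a: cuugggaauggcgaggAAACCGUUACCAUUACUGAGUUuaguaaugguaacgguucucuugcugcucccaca

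The capitals in Mir451a run into the loop of the hairpin, whereas those in Mir144 lie one in each arm. The hairpins were 99 bp apart and together spanned 237 bp. In the GENCODE M21 annotation each is an exon of its own miRNA gene, and no protein-coding gene overlaps them. Mir451b occupies the span of Mir451a on the opposite strand. The nearest protein-coding gene, Eral1, lies 135 bp away on the minus strand.

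Levels are given in CPM, the reads of a miRNA scaled to a common library total, which is the deposited value divided by 10. Libraries held 469808 to 5133920 miRNA reads, and the neuron libraries reached the lowest depths. A miRNA with 0 reads could lie at up to 0.584 to 6.39 CPM, depending on the library, which is the level of 3 reads and covers counting error only. Each of the tissue, time course, neuron and CT18 sets may be a batch, so levels are set side by side between them without a test. The CT18 libraries stood apart, with 6 vessel-wall miRNAs that summed to 933 to 1607 CPM, against 3238 to 11843 in the other tissue libraries.

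miR-144-3p, the more abundant arm of its hairpin in most libraries, was highest in cortex and hypothalamus and lowest in the neuron libraries. It stood at 154.2 and 151.5 CPM in cortex and at 95.9 and 146.9 in hypothalamus. LP samples had 28.3 and 30.6 CPM, CTRL samples 23 and 25.3, and the time course 8.8 to 35.3 with a median of 17.4. SCN tissue had 3.1 and 2.7 CPM, and VIP neurons 0.3 and 0.3, which was 1 read in each library. AVP and CCK neurons had 0 reads, at which 3 reads over the group would be 2.08 CPM in AVP and 3.13 CPM in CCK neurons. The libraries of hypothalamus and cortex did not overlap. The time course overlapped both CT18 groups, while SCN tissue lay below every library of the time course and of CT18.

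miR-451a followed an order of levels with the same upper end. Its levels were 149.4 and 341.2 CPM in hypothalamus and 207.7 and 269.2 in cortex. CTRL samples had 87.8 and 66.8 CPM and LP samples 76.4 and 115.4. SCN tissue had 33.8 and 25.6 CPM and the time course 21.8 to 52.6, with a median of 31.1. Hypothalamus overlapped cortex, LP overlapped CTRL, and SCN tissue lay within the range of the time course. VIP neurons had 16.7 and 12.5 CPM, 82 reads in all, while AVP and CCK neurons had 0 reads.

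miR-486-5p ran in nearly the opposite order. AVP neurons were highest, with 2164 and 2106.8 CPM. VIP neurons had 1152.7 and 930.3 CPM, CCK neurons 980.1 and 1014.7, and the time course 859.4 to 1362.2 with a median of 1112.6. These 3 groups overlapped one another and did not reach the AVP libraries. LP samples had 574.9 and 705.4 CPM, CTRL samples 640.8 and 567.7, and SCN tissue 544 and 453.8. Hypothalamus, at 291.4 and 373.6 CPM, and cortex, at 131.2 and 201.4, were lowest and did not overlap.

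**Figure D1:**
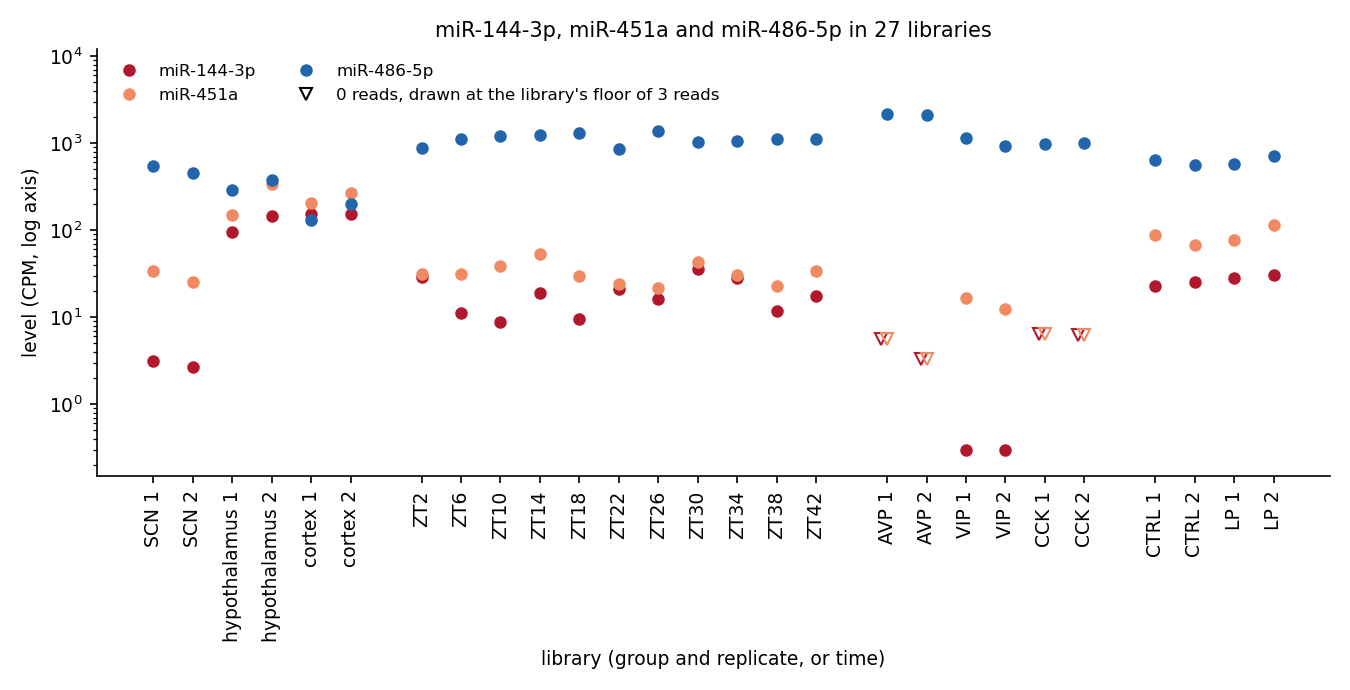
Level of miR-144-3p, miR-451a and miR-486-5p (CPM, log axis) in each of the 27 libraries, where each point is 1 library and open triangles stand for 0 reads, drawn at the level of 3 reads in that library. miR-486-5p is the highest of them in every library but those of cortex, and miR-144-3p drops to 3.1 and 2.7 CPM in SCN tissue.

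The remaining arms were scarce. miR-144-5p, usually taken for the passenger arm, had 2.2 and 4.1 CPM in SCN tissue, 11.8 and 26.5 in hypothalamus and 19.4 and 20.5 in cortex. It ranged from 0 to 2.1 CPM in the time course, had 1.5 to 4.5 CPM at CT18, and had 0 reads in the 6 neuron libraries. miR-486-3p reached 12.1 CPM at most in tissue, at ZT6. In neurons its replicates disagreed, with 0 and 21.5 CPM in VIP, 0 and 18.4 in CCK, and 0 and 0 in AVP libraries. miR-3107-3p never exceeded 2.2 CPM, the level of 10 reads at ZT42.

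SCN tissue held far less miR-144 and miR-451a than hypothalamus, and somewhat more miR-486-5p. On the ratio of mean levels miR-144-3p was 41.9-fold lower in the SCN (2.90 ± 0.283 against 121 ± 36.1 CPM, SD, n = 2 and 2). The SCN values rested on 7 and 10 reads, against 219 and 326 in hypothalamus. As log2 fold change of the limma fit this was -5.31 ± 0.24 (SE), with an adjusted p of 1.13e-06, the largest fall and the smallest p among the 378 miRNAs tested. It passed the filter of 10 CPM in at least 2 libraries only through the tissues where it was high, hypothalamus and cortex. Without a filter on low values its adjusted p was 0.000414. All p-values of group comparisons here are from limma, adjusted by Benjamini-Hochberg over all miRNAs tested, two-sided. miR-144-5p was 6.08-fold lower (log2 -2.52 ± 0.50, adjusted p = 0.00167, or 0.0140 without a filter on low values). miR-451a was 8.26-fold lower (29.7 ± 5.80 against 245 ± 136 CPM, log2 -2.94 ± 0.34, adjusted p = 5.29e-05), the 8th largest fall. For these 3 arms every SCN library lay below every hypothalamus library, and groups did not overlap for 87.3% of all miRNAs tested. In bulk tissue, fewer cells of a type and less RNA per cell cannot be told apart.

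miR-486-5p went the other way against hypothalamus. It was 1.5-fold higher in the SCN (499 ± 63.8 against 333 ± 58.1 CPM, log2 0.59 ± 0.22, adjusted p = 0.0342), and its libraries did not overlap. The call was lost without a filter on low values (adjusted p = 0.115), without SCN replicate 1 (0.155) and without hypothalamus replicate 1 (0.163). Thus 3 arms were lower and the miR-486-5p and miR-3107-5p pair higher, where 42.9% of all 378 miRNAs tested were lower in the SCN and 28% higher. With median-ratio scaling, which took a shift of -0.29 out of every log2 fold change and so raised them all, 131 miRNAs were lower and 128 higher, in place of 162 and 106. miR-144-3p and miR-144-5p passed the filter of 10 CPM in at least 2 libraries only through hypothalamus and cortex, and miR-486-3p and miR-3107-3p did not pass it.

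Against cortex the same members differed in the same directions. miR-144-3p was 52.7-fold lower in the SCN than in cortex (153 ± 1.91 CPM, n = 2), with a log2 fold change of -5.68 ± 0.24 and an adjusted p of 4.98e-08, again the largest fall of 378. Without a filter on low values its adjusted p was 6.94e-05. miR-451a was 8.03-fold lower (238 ± 43.5 CPM in cortex, log2 -3.0 ± 0.34, adjusted p = 2.63e-05) and miR-144-5p 6.33-fold lower (log2 -2.69 ± 0.50, adjusted p = 0.000831). Both arms of miR-144 passed the filter of 10 CPM only through hypothalamus and cortex. Without a filter on low values miR-144-5p had an adjusted p of 0.00807. miR-486-5p was 3.0-fold higher in the SCN (166 ± 49.6 CPM in cortex, log2 1.61 ± 0.22, adjusted p = 9.02e-05). No member's libraries overlapped between SCN and cortex, as for 90.2% of all miRNAs tested. In this comparison 38.9% of the 378 miRNAs were lower in the SCN and 41.3% higher.

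Hypothalamus and cortex differed in miR-486-5p, which was 2.0-fold higher in hypothalamus (log2 1.02 ± 0.22, adjusted p = 0.00308). Among all miRNAs tested 41.8% were higher in hypothalamus and 16.4% lower, a split of 158 to 62 that became 109 to 98 with median-ratio scaling. That call was lost with quantile normalization (log2 0.61, adjusted p = 0.132). miR-451a had a log2 difference of -0.07, with a 95% interval of -0.83 to 0.69, and miR-144-5p of -0.17, from -1.31 to 0.96. For miR-144-3p, whose libraries did not overlap between hypothalamus and cortex (as for 83.9% of all miRNAs), the log2 difference was -0.36 (interval -0.91 to 0.18, adjusted p = 0.216). It passed the threshold with median-ratio scaling (-0.71, adjusted p = 0.0303), with edgeR on recovered reads (-0.57, 0.0289) and with DESeq2 (-0.68, 0.0253). Hypothalamus replicate 1 was the lower of its pair in miR-144-3p, miR-144-5p and miR-451a. Without hypothalamus replicate 2, miR-451a was lower in hypothalamus than in cortex (log2 -0.66, adjusted p = 0.0435), and without replicate 1 its difference was 0.53 (0.0942).

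**Figure D2:**
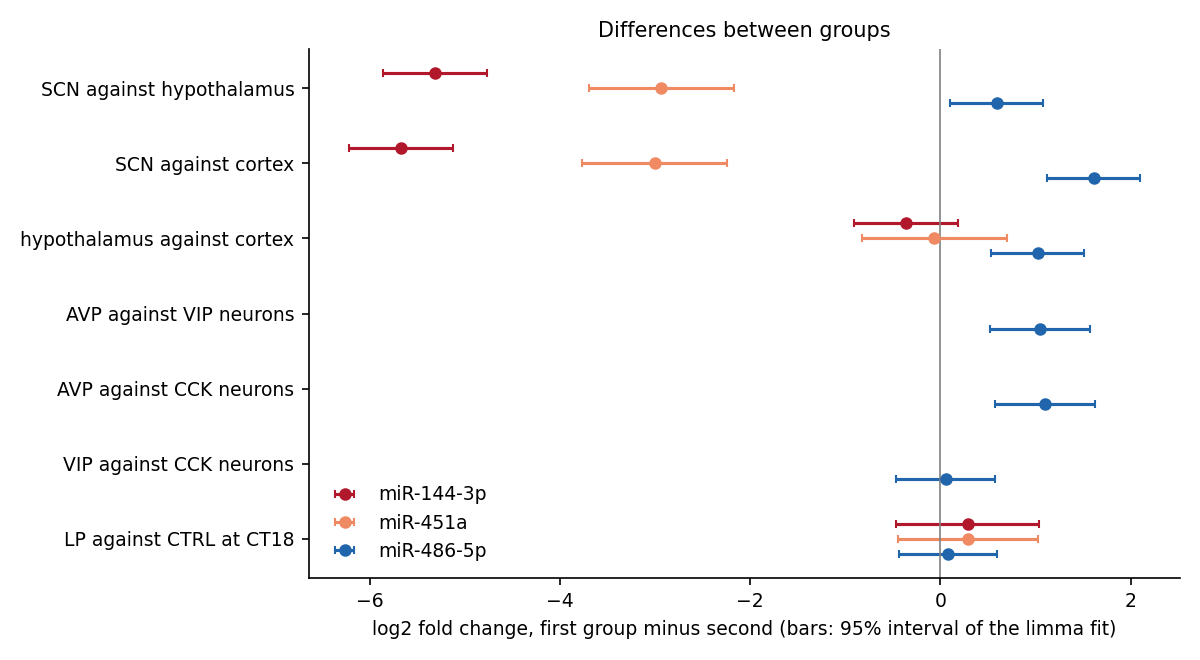
Log2 fold change of miR-144-3p, miR-451a and miR-486-5p in 7 comparisons, first group minus second, with the 95% interval of the limma fit (2 libraries a group). miR-144-3p and miR-451a lie far below 0 where SCN tissue is compared with hypothalamus or cortex, and miR-486-5p above 0; comparisons of neurons show miR-486-5p alone, since a group had 0 reads or 1 read a library for the others.

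The fall of miR-144 and miR-451a in the SCN moved together with GC content. Over the 321 tested miRNAs with a sequence, Spearman's rho between GC content and the log2 fold change was 0.62 for SCN against hypothalamus and 0.49 for SCN against cortex, a description across miRNAs measured in the same libraries. Among the 25 miRNAs with a GC content of at most 35%, which include both arms of miR-144, the median log2 fold change was -1.71 against hypothalamus, and 23 of the 25 were called lower. Among 82 miRNAs above 55% the median was 0.77. miR-144-3p was still the lowest of all 321, and 4 miRNAs lay below miR-451a, 2 of them at most 35% GC and 2 between 35% and 45%.

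With the linear trend on GC content removed from each library, miR-144-3p was lower in the SCN by log2 -3.85 than in hypothalamus (adjusted p = 4.93e-06) and by -3.88 than in cortex (8.57e-07). miR-451a had -1.97 (adjusted p = 0.00114) and -1.81 (0.00111). miR-144-5p lost its call in both comparisons, at -1.09 (adjusted p = 0.0884) and -0.93 (0.115). miR-486-5p and miR-3107-5p had no sequence here, so their higher level in the SCN was neither set against GC content nor corrected for it. miR-101a-3p, which shares bases 2 to 7 with miR-144-3p at a GC content of 33.3%, had 18.2 and 10.8 CPM in the SCN against 100.3 and 69.4 in hypothalamus (log2 -2.56 ± 0.30, adjusted p = 5.61e-05). miR-101b-3p, which carries those letters 1 base further in, had 15.5 and 17 CPM against 96.8 and 86 (log2 -2.48 ± 0.18, adjusted p = 5.65e-06).

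**Figure D3:**
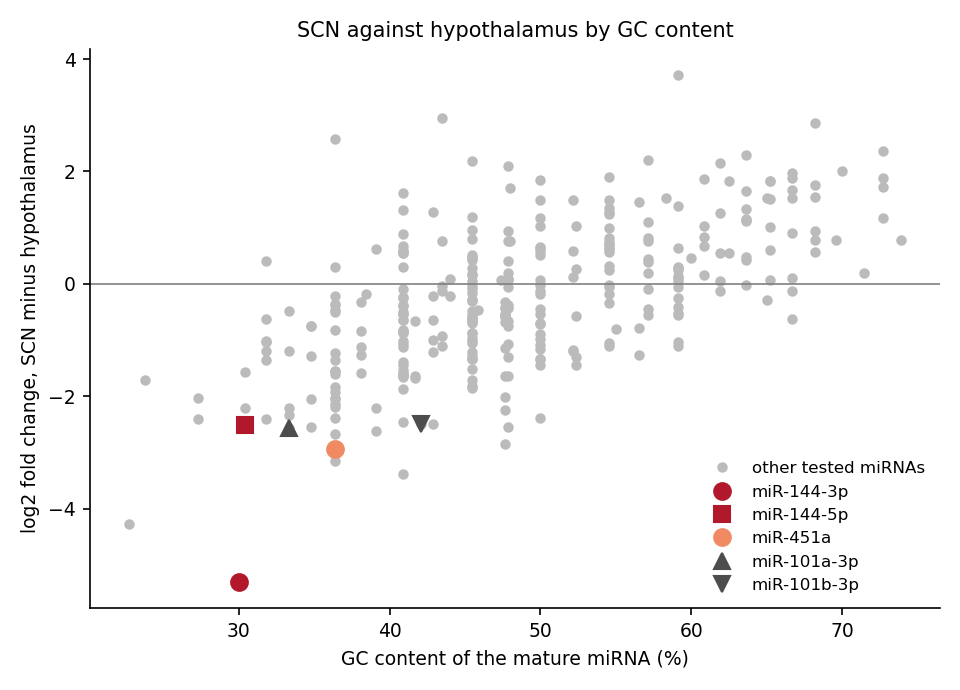
Log2 fold change of SCN minus hypothalamus against the GC content of the mature miRNA (%), where each point is 1 of 321 tested miRNAs with a sequence. Low-GC miRNAs lie lower as a group, and miR-144-3p, at 30% GC and -5.31, is the lowest point of all.

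Other miRNAs abundant in red cells moved both ways in the SCN, as all miRNAs tested did. The list of them had 13 members, of which 11 were tested, and many of them are also made in brain. Against hypothalamus 6 fell and 3 rose in the SCN, with a median log2 fold change of -0.49 beside -0.29 over all 378 miRNAs. Of all 378, 42.9% were called lower in the SCN and 28% higher. miR-16-5p, abundant in red cells and widely expressed, was lower in the SCN (547 ± 100 against 1264 ± 82.5 CPM, log2 -1.22 ± 0.14, adjusted p = 5.25e-05). miR-106b-5p fell more steeply, by 2.50 on the log2 scale (4.15 ± 0.354 against 23.9 ± 1.41 CPM, adjusted p = 0.000133). It passed the filter of 10 CPM only through tissues other than the SCN. Without a filter on low values its adjusted p was 0.00132. miR-423-5p rose (314 ± 4.10 against 114 ± 4.31 CPM, log2 1.46 ± 0.18, adjusted p = 7.90e-05). Against cortex 5 fell and 5 rose, with a median of -0.18 beside 0.06. In that comparison 38.9% of all miRNAs tested were called lower and 41.3% higher.

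Markers of other cells that blood or vessels bring along moved as follows, and their part in the fall of miR-144 and miR-451a was not tested. Of 8 vessel-wall miRNAs listed 6 were tested, and 6 fell in the SCN against hypothalamus, with a median log2 fold change of -1.65. Over all 378 miRNAs tested the median was -0.29, and 42.9% were called lower in the SCN. miR-143-3p, a smooth-muscle miRNA, was one of them (2074 ± 158 against 7008 ± 539 CPM, log2 -1.76 ± 0.10, adjusted p = 2.23e-06). Their summed level was 3916 to 3942 CPM in SCN tissue against 11119 to 11843 in hypothalamus and 11027 to 11564 in cortex. Of 7 muscle miRNAs listed 3 were tested, and 3 fell, with a median log2 fold change of -2.33 beside the same background. miR-1a-3p, the most abundant of them, had 34.8 ± 15.0 CPM against 271 ± 4.10 (log2 -3.03 ± 0.26, adjusted p = 9.50e-06). miR-499-5p, also among the 3, passed the filter of 10 CPM only through tissues other than the SCN.

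White-cell and platelet miRNAs did not move one way. Of 3 tested of 9 listed, miR-150-5p, a lymphocyte miRNA, rose in the SCN against hypothalamus (505 ± 32.0 against 262 ± 19.0 CPM, log2 0.95 ± 0.13, adjusted p = 0.000183), while miR-146a-5p and miR-142-5p fell. miR-146a-5p, which glia also express, had 1476 ± 95.4 against 2302 ± 168 CPM, and miR-142-5p 0.95 ± 1.34 against 12.4 ± 1.56. miR-142-5p passed the filter of 10 CPM only through hypothalamus, where it was high. The summed level of the list was 1895 to 2077 CPM in SCN tissue and 2484 to 2692 in hypothalamus, and miR-142-3p, a defining white-cell miRNA, had 0 reads in both SCN libraries. Of 10 neuronal miRNAs tested 8 fell and 2 rose in the SCN against hypothalamus, with a median log2 fold change of -1.01. Over all 378 miRNAs the median was -0.29, with 42.9% called lower and 28% higher.

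Ratios within a library, which do not depend on its scaling, set SCN tissue apart from the other tissue libraries. miR-451a was 9.48 and 10.9 times miR-144-3p in SCN tissue, 1.56 and 2.32 times in hypothalamus, and 1.35 and 1.78 times in cortex. In the time course, also SCN tissue, the ratio was 1.07 to 4.36, and at CT18 2.64 to 3.82. In VIP neurons it was 41.7 and 55.7, over 1 read of miR-144-3p in each library. The ratio in SCN tissue thus lay above every other tissue library, and no test was made of it, since 2 libraries against 2 cannot give a two-sided exact permutation p below 0.333.

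Relative to the 5p arm, too, the 3p arm of miR-144 was low in SCN tissue. In SCN tissue the 3p arm was 0.659 and 1.41 times the 5p arm, from 5 to 15 reads of each arm. It was 5.54 and 8.13 times in hypothalamus, 7.39 and 7.95 times in cortex, and 5.33 to 18.6 times in the 8 time course libraries with reads of both arms. Both arms come from the same hairpin, with GC contents of 30% (3p) and 30.4% (5p), and the cause of the difference in ratio was not tested. In the CT18 libraries the ratio was 5.11 to 16.9.

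miR-486-5p made up most of the sum of the 3 miRNAs wherever SCN cells or tissue were sequenced. Its share of miR-144-3p, miR-451a and miR-486-5p together was 93.6% and 94.1% in SCN tissue, 93.1% to 97.3% in the time course, 82.9% to 86.0% at CT18 and 98.5% to 100% in neurons. In hypothalamus it was 43.4% and 54.3%, and in cortex 26.6% and 32.4%. The ratio of miR-486-5p to miR-451a was 16.1 and 17.7 in SCN tissue, 23.7 to 62.5 in the time course, 1.09 and 1.95 in hypothalamus and 0.632 and 0.748 in cortex. At CT18 it was 6.11 to 8.50, below the other SCN tissue libraries, and in VIP neurons it was 69.0 and 74.4.

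**Figure D4:**
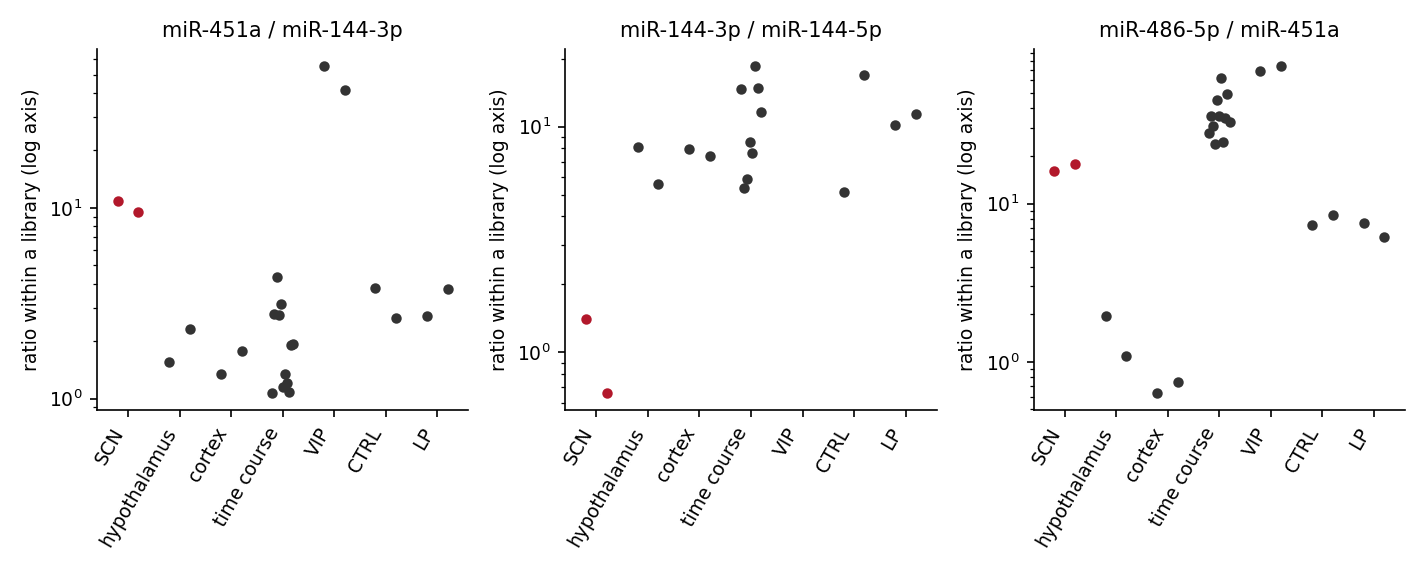
Ratios within a library (log axes) of miR-451a to miR-144-3p, of the 3p to the 5p arm of miR-144, and of miR-486-5p to miR-451a, where each point is 1 library with reads of both miRNAs and SCN tissue is in red. SCN tissue lies above the other tissue libraries in the first ratio, at 9.48 and 10.9, and below them in the second, at 0.659 and 1.41.

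The ratio of miR-451a to miR-23a-3p is a common gauge of red-cell lysis in plasma, where miR-23a-3p serves as the steady partner. As a ratio of CPM it was 0.0641 and 0.0865 in SCN tissue, 0.0349 to 0.0873 in the time course and 0.0855 to 0.135 at CT18. Hypothalamus had 0.270 and 0.554, and cortex 0.224 and 0.274, so both lay above every library of SCN tissue. VIP neurons had 0.663 and 1.25, the highest of the libraries with reads of both. There miR-23a-3p itself was low, with a mean of 17.6 CPM against 395 in SCN tissue, 584 in hypothalamus and 956 in cortex. The VIP ratio is therefore not comparable with those of tissue as a gauge of red-cell lysis. The median level of the time course was 1.05 times the mean of SCN tissue for miR-451a, 6.00 times for miR-144-3p and 2.23 times for miR-486-5p. Taken relative to miR-23a-3p these values were 0.663, 4.13 and 1.42, so that the direction for miR-451a turned. CTRL samples lay at 8.33 times the SCN tissue level in miR-144-3p, 2.60 times in miR-451a and 1.21 times in miR-486-5p, or 4.11, 1.28 and 0.595 relative to miR-23a-3p, where miR-486-5p turned.

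Across the time course none of miR-144-3p, miR-451a and miR-486-5p followed a 24 h curve detectably, and the scarcer arms were not tested. miR-144-3p had 29.2 CPM at ZT2, 11.2 at ZT6, 8.8 at ZT10, 19.1 at ZT14, 9.4 at ZT18 and 20.8 at ZT22. In the second cycle it had 16.1 CPM at ZT26, 35.3 at ZT30, 27.9 at ZT34, 11.8 at ZT38 and 17.4 at ZT42. The same clock time did not give the same level, since ZT10 was the lowest library while ZT34, 24 h later, was the third highest. Over the 5 clock times sampled in both cycles, the larger value was 1.62 to 3.17 times the smaller.

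miR-451a moved over a narrower range. Its levels were 31.1, 31.2, 38.4, 52.6, 29.4 and 23.9 CPM from ZT2 to ZT22, and 21.8, 42.7, 30.2, 22.6 and 33.8 CPM from ZT26 to ZT42. ZT14 was the highest, yet ZT38, the same clock time a day later, was the second lowest. The larger value of such a pair was 1.15 to 2.33 times the smaller.

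miR-486-5p was the steadiest of the 3. Its levels were 874.4, 1112.6, 1194.3, 1248.1, 1323.6 and 859.4 CPM from ZT2 to ZT22, and 1362.2, 1044.3, 1051, 1108.1 and 1112.8 CPM from ZT26 to ZT42. It was low at ZT2 and ZT22 and highest at ZT26, which shares the clock time of ZT2. Paired clock times differed by 1.07 to 1.56 times.

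The fitted 24 h amplitudes were 0.35 for miR-144-3p, 0.26 for miR-451a and 0.11 for miR-486-5p on the log2 scale, beside a median of 0.24 over the 357 miRNAs tested. The adjusted p was 0.95 for each (limma F test of cosine and sine terms). None of the 357 passed, or 0%, in limma, edgeR and DESeq2, and 6 had an unadjusted p under 0.05 in limma. With 1 library a time, a rhythm smaller than the spread between libraries was not detectable.

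**Figure D5:**
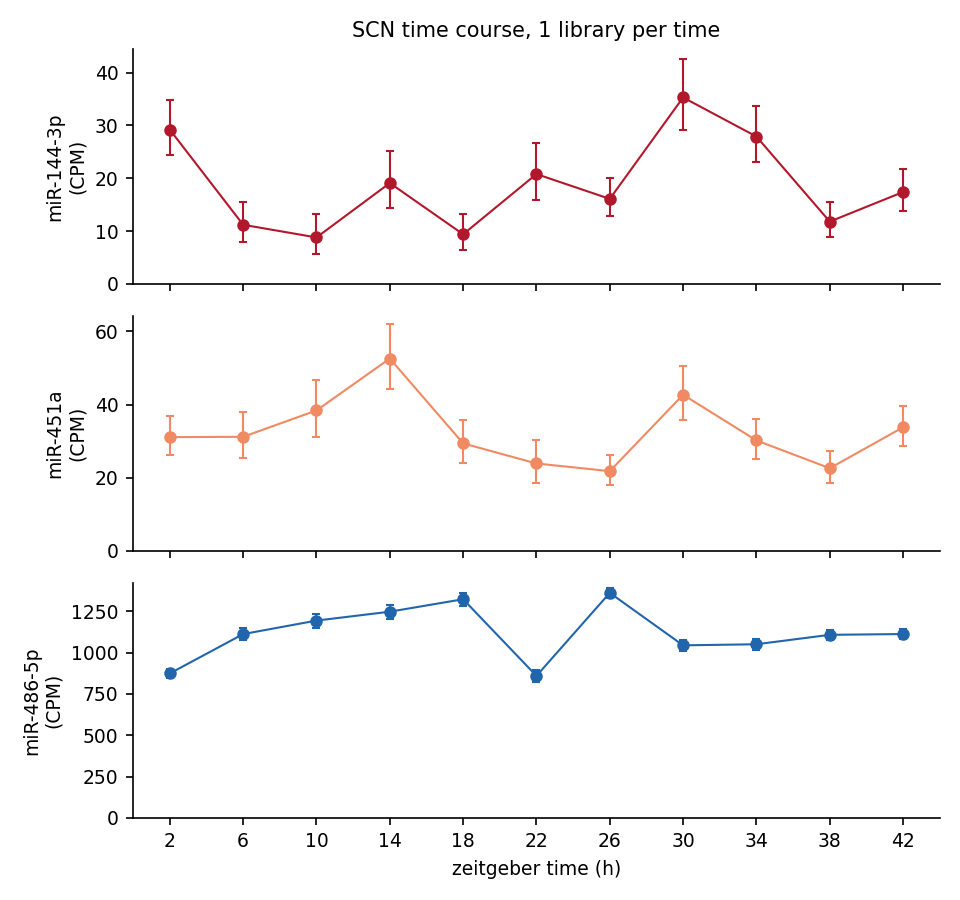
Level (CPM) of the 3 miRNAs against zeitgeber time (h) in the SCN time course, with 1 library a time and error bars for the 95% Poisson interval of the reads, which covers counting error only. The values at the same clock time in the 2 cycles differ, as for miR-144-3p at ZT10 (8.8) and ZT34 (27.9).

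Nor did the 3 miRNAs rise and fall together over the 11 times. Pearson's r between miR-144-3p and miR-451a, made from the same transcript, was 0.20 (permutation p = 0.551, adjusted over 3 pairs 0.747) and Spearman's rho 0.17 (permutation p = 0.613). Without ZT10 and ZT30, the libraries farthest from the median of miR-144-3p, r was 0.19. Between miR-144-3p and miR-486-5p r was -0.57 (permutation p = 0.0669, adjusted 0.201) and rho -0.66 (permutation p = 0.0295, adjusted 0.0886), with an r of -0.60 without ZT10 and ZT30. With median-ratio scaling that r was -0.26. Between miR-451a and miR-486-5p r was 0.11 (permutation p = 0.747) and rho -0.01 (permutation p = 0.987), and r was 0.24 without ZT14 and ZT26.

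By Pearson's r of log2 values over the same 11 libraries, the miRNAs most like miR-144-3p were miR-30a-5p (0.86), miR-24-2-5p (0.84), miR-338-3p (0.84), miR-30e-5p (0.80) and miR-467a-5p (0.79). miR-451a ranked 151st for it. Those most like miR-451a were miR-127-5p (0.89), miR-26b-3p (0.79), miR-29b-3p (0.72), miR-320-3p (0.68) and miR-574-5p (0.68). For miR-486-5p they were miR-671-3p (0.79), miR-423-5p (0.71), miR-125a-5p (0.71), miR-92b-3p (0.68) and miR-1981-3p (0.67). These points share libraries and depth and are a description only.

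Across tissues the picture differed. Over the 6 tissue and 4 CT18 libraries, each set centred on its own mean, miR-144-3p was the closest of 303 miRNAs to miR-451a (r = 0.97), followed by miR-145a-3p (0.94), miR-9-3p (0.94), miR-126-5p (0.93) and miR-30b-5p (0.93). The closest to miR-144-3p were miR-126-5p (0.98), a miRNA of vessel lining, miR-582-5p (0.98), miR-9-3p (0.98), miR-30b-5p (0.98) and let-7f-5p (0.97), with miR-451a 7th. The closest to miR-486-5p were miR-204-3p (0.99), miR-351-5p (0.98), miR-702-3p (0.98), miR-770-5p (0.96) and miR-7a-2-3p (0.96), while its r was -0.75 with miR-144-3p and -0.62 with miR-451a. The points fall into tissue groups, so no p is given.

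Among neurons, miR-486-5p was higher in AVP than in VIP or CCK neurons. Mean levels were 2135 ± 40.4 CPM in AVP libraries, 1042 ± 157 in those of VIP neurons and 997 ± 24.5 for CCK (SD, n = 2 each). The AVP libraries overlapped neither of the other groups, as for 64.6% of all miRNAs against VIP and 58% against CCK. AVP was 2.05-fold above VIP neurons (log2 1.04 ± 0.20, adjusted p = 0.0185) and 2.14-fold above CCK neurons (log2 1.10 ± 0.20, adjusted p = 0.0231). Of all 305 miRNAs tested, 18% were higher in AVP than in VIP neurons and 14.8% lower, and 2.62% were higher in AVP than in CCK neurons and 14.1% lower. With median-ratio scaling those splits moved from 55 and 45 to 35 and 62, and from 8 and 43 to 15 and 43.

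The call against VIP neurons depended on scaling, since median-ratio scaling took a shift of 0.65 out of every log2 fold change and so lowered them all. It was lost with median-ratio scaling (log2 0.39, adjusted p = 0.115), edgeR (0.53, 0.148), DESeq2 (0.40, 0.316) and without AVP replicate 1 (1.02, 0.0709) or 2 (1.06, 0.0503). The call against CCK neurons was lost when any 1 of the 4 libraries was left out, with log2 fold changes of 1.07 to 1.12 and adjusted p from 0.0569 to 0.187. VIP and CCK neurons differed in miR-486-5p by log2 0.05, with an interval of -0.47 to 0.58. That difference passed with median-ratio scaling (0.87, adjusted p = 0.0189) and with DESeq2 (0.88, 0.0296), where the split of VIP calls changed from 25 higher and 66 lower to 38 and 31 with the former. In that comparison 8.2% of miRNAs were higher in VIP neurons and 21.6% lower.

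miR-451a was read in VIP neurons and in neither of the other neuron types. Its mean there, 14.6 ± 2.97 CPM, was at least 7.04-fold higher than in AVP and at least 4.66-fold higher than in CCK neurons, taking 3 reads over each group at 0 as its bound. miR-451a passed the filter on low values through the VIP libraries alone and was set against groups at 0 reads, so no p is given for it. The VIP libraries were also the deepest of the neurons, with 2786568 and 2812318 reads against 537185 and 908476 in AVP and 469808 and 487360 in CCK libraries. The part of depth in the difference was not tested beyond that bound.

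White-cell and vessel-wall miRNAs were scarce in the neuron libraries, while other miRNAs abundant in red cells were not. The summed level of the 7 white-cell and platelet miRNAs found was 112 to 159 CPM in VIP, 0 to 48.5 in AVP and 38.3 to 75.9 in CCK neurons, against 1345 to 2313 in the time course. miR-142-3p and miR-142-5p had 0 reads in the 6 libraries. However, miR-142-5p averaged only 0.95 CPM in SCN tissue and 0.92 in the time course. The level of 3 reads was 1.07 to 6.39 CPM in the neuron libraries, so their 0 reads do not set them apart from SCN tissue. Other members of that list were read in VIP neurons, whose libraries were the deepest. miR-223-3p had 4 reads in VIP and 0 in AVP and CCK neurons, and miR-150-5p 5 in VIP, 1 in CCK and 0 in AVP neurons. miR-146a-5p, which glia also express, averaged 133.75 CPM in VIP, 24.25 in AVP and 56.1 in CCK neurons. It made up most of the summed level of that list. The 6 vessel-wall miRNAs summed to 59.5 to 81.3 CPM in VIP, 3.3 to 70.8 in AVP and 138 to 177 in CCK neurons. The 3 of them tested in neurons went different ways. miR-126-3p averaged 55.9 CPM in VIP, 0 in AVP and 6.15 in CCK neurons. In the same order miR-126-5p averaged 0, 35.4 and 17.45 CPM, and miR-143-3p 14.2, 1.65 and 129.65 CPM. Muscle miRNAs summed to 39.8 to 45.5 CPM in VIP, 48.5 to 93.2 in AVP and 138 to 162 in CCK neurons, against 44.3 to 81.1 in the time course. One member, miR-499-5p, averaged 27.8 CPM in VIP, 70.85 in AVP and 148.7 in CCK neurons. It made up most of the sums in AVP and CCK neurons, but not in both VIP libraries, where its SD was 16.5 CPM. miR-1a-3p and miR-133a-3p had reads in VIP neurons and 0 reads in AVP and CCK neurons, while miR-206-3p had reads in CCK neurons alone. The 13 other miRNAs abundant in red cells, many of which neurons make too, summed to 2047 to 2863 CPM in VIP, 5548 to 5762 in AVP and 5016 to 5212 in CCK neurons, against 3486 to 6184 in the time course. The sum of that list was lowest in VIP neurons. The part of any of these lists in the level of miR-451a in VIP neurons was not tested. miR-486-5p reached 930.3 to 2164 CPM in the same libraries, where miR-144-3p had at most 1 read.

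At CT18, LP and CTRL samples did not differ detectably in miR-144-3p, miR-451a or miR-486-5p, and the scarcer arms were not tested. The log2 difference of LP minus CTRL was 0.29 for miR-144-3p (95% interval -0.46 to 1.03), 0.29 for miR-451a (-0.44 to 1.03) and 0.08 for miR-486-5p (-0.44 to 0.60), each with an adjusted p of 0.992. Both LP libraries exceeded both CTRL libraries in miR-144-3p, as happened in either direction for 18.6% of the 317 miRNAs tested. For miR-451a and miR-486-5p the groups overlapped. limma called 0 of the 317, or 0%, and 1 had an unadjusted p under 0.05, while edgeR and DESeq2 also called 0. Without LP replicate 2, 21 miRNAs were called, and the log2 difference was -0.0035 for miR-451a and -0.07 for miR-486-5p.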

How the data were processed

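Small RNA of 27 libraries was sequenced after Trizol extraction, per the labels' protocols. Bowtie and the builds GRCm38 and mm10 are named, without version or role, per the submitters' processing notes. Each deposited value is the signal of 1 mature miRNA, normalized so that a library sums to about 10000000. Whole reads could be recovered for 100% of the values (469808 to 5133920 reads a library), since each is a multiple of the value of 1 read, rounded down. CPM is the value divided by 10. Samples were grouped by the labels, and 0 columns had no group.

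limma-trend (limma 3.58.1, R 4.3.3) was fitted on log2(value + 1) over all miRNAs that reached a value of 100 (10 CPM) in 2 or more libraries of a model (3 for the time course). One model each served tissue, neurons, CT18 and the time course, the last with cosine and sine terms of 24 h. p-values were adjusted by Benjamini-Hochberg, threshold 0.05. A fold in words divides mean CPM, and log2 fold changes come from the model. Alternatives were edgeR 4.0.16 and DESeq2 1.42.0 on recovered reads, median-ratio and quantile scaling, other filters, a pseudocount of 10, a GC correction on the 84.9% to 86.6% of tested miRNAs with a sequence, a replicate block and leaving out each library. Read recovery and models were tested on simulated data. Correlations used 100000 permutations (scipy 1.17.1).

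Every member was described, with up to 3 miRNAs of smallest p from each list that the text names, the 5 miRNAs most like each member, miR-23a-3p, miR-101a-3p and miR-101b-3p. Members and lists were chosen with earlier results of these data known. miR-142-3p and miR-142-5p in neurons were singled out as defining white-cell markers. Further members of the white-cell and muscle lists were named for neurons to show what the sums were made of.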

Additional observations from a re-analysis of the deposited data

How the results depend on the processing

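Across the other settings, the falls of miR-144-3p in the SCN ranged from log2 -5.62 to -3.85 against hypothalamus and -6.16 to -3.88 against cortex, and those of miR-451a from -3.53 to -1.97 and -3.30 to -1.81, and each kept its call in all 15 settings. Among tested differences, signs turned only where there was no call: with GC correction, alone or with the block, for miR-144-5p (0.16) and miR-451a (0.16) between hypothalamus and cortex. When 1 library was left out, those ranged from -0.75 to 0.41 and -0.66 to 0.53, miR-486-5p in VIP against CCK neurons from -0.10 to 0.21, and LP against CTRL from -0.0035 to 0.59 for miR-451a and -0.069 to 0.23 for miR-486-5p. AVP against CCK neurons gave 51 calls, 28 with edgeR, 32 with replicate block and GC correction, and 0 to 69 with 1 library left out. VIP against CCK neurons gave 91 calls, 56 with quantile normalization, 35 with edgeR, 46 with the replicate block, 46 with block and GC correction, and 1 to 65 with 1 library left out. LP against CTRL gave 0 to 21 calls. Relative to miR-23a-3p, levels over SCN tissue were 0.663 (miR-451a) and 1.42 (miR-486-5p) in the time course, and 4.11 (miR-144-3p), 1.28 (miR-451a) and 0.595 (miR-486-5p) in CTRL samples. The cause of these changes was not tested. Replicate numbers did not pair the libraries (correlations of deviations -0.09 to 0.25). With the block SCN against hypothalamus gave 267 calls, beside 268, and among members the calls of miR-486-5p in AVP against VIP (adjusted p = 0.0521) and CCK neurons (0.0743) were lost. miR-144-3p in SCN tissue rests on 7 and 10 reads, so its fold is known less exactly than its direction.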
